A study of Mus musculus with 30 samples.

Results

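The 37 genes described here encode enzymes and regulators of cholesterol and fatty acid synthesis in mouse bone marrow-derived macrophages. They were taken by symbol from a list of this pathway, and each of the 37 matched 1 of the 55414 Ensembl genes counted in every library. Of the 37, 19 encode enzymes of the sterol branch, 5 encode its regulators, 2 encode sterol transfer or binding proteins, and 11 act in the synthesis, desaturation or elongation of fatty acids. All 37 passed the filter on low counts and were among the 15686 genes tested.

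Macrophages were grown from bone marrow for 7 days in medium with 15 or 20% L929-conditioned medium, a source of macrophage growth factor, and polyA RNA was sequenced. Marrow came from mice with TRα1PV, a mutant thyroid hormone receptor α1 that cannot bind thyroid hormone and is known to act in a dominant-negative manner, or from wild-type (WT) mice. Cells were left unstimulated (M0), were given lipopolysaccharide and interferon-γ at 20 ng/mL each (M1), or received 20 ng/mL interleukin-4 (M2). The 6 groups, TRα1PV and WT in M0, M1 and M2, held 5 libraries each, labelled as biological replicates 1 to 5, and the series was made to compare the genotypes within each state. Duration of stimulation, zygosity of the mutant allele and the animals behind the replicates are not stated in the sources used here, so p-values measure the spread between these libraries.

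Cholesterol is built from acetyl-CoA through mevalonate, squalene and lanosterol, and fatty acids are built from the same precursor through malonyl-CoA. Both branches are switched on by the sterol regulatory element-binding proteins, which the escort protein Scap carries out of the endoplasmic reticulum when membrane sterol is low and which Insig proteins hold back when it is high. In macrophages the branches supply membrane and lipid mediators, and in liver thyroid hormone is known to raise expression of several of the fatty acid genes, among them Me1, Fasn and Acaca.

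Per library, 23015952 to 59086252 reads were counted in genes. The share of reads given to no single gene was 14.0 to 16.5% in TRα1PV M0 and 12.2 to 16% in WT M0, against 10.7 to 13.5% in the M1 and M2 libraries. WT M0 replicate 2 stood apart from its group, with 4.56% of its gene reads from mitochondrial genes, where the median of the 5 WT M0 libraries was 1.42%, and results in M0 that change without it are also given so. Thra, the gene that carries the mutation, had 56.1 ± 4.03 CPM in TRα1PV M0 and 24.4 ± 1.91 CPM in WT M0 (SD, n = 5 each), and the counts do not separate mutant from normal transcripts. The 8 macrophage markers were read in every group. Their summed level was 26470 to 31290 CPM in TRα1PV M0 and 29160 to 33850 CPM in WT M0, 7505 to 10360 CPM over the M1 libraries and 18600 to 21870 CPM over the M2 libraries. CPM are read counts scaled to library size and the TMM factor of each library. Fold changes below are log2 values ± standard error from 1 edgeR quasi-likelihood fit of all 30 libraries. Adjusted p-values are by the method of Benjamini and Hochberg, over all genes tested, and a gene was called higher or lower where this value was under 0.05.

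RefSeq promoter windows, from 250 bases before to 50 bases after the annotated start, were on hand for 30 of the 37 genes (build GRCm38.p6). The windows of 3 sterol branch enzymes and the regulator Insig1, which did not overlap between genotypes in M2, and of the fatty acid synthase gene, are shown because the factors that switch on this pathway bind near gene starts. Capitals mark the sterol element TCACNCCAC and the NF-Y box CCAAT, on either strand, and each window is written 5′ to 3′ along its gene.
Hmgcs1 (chr13:119690101-119690400, plus strand): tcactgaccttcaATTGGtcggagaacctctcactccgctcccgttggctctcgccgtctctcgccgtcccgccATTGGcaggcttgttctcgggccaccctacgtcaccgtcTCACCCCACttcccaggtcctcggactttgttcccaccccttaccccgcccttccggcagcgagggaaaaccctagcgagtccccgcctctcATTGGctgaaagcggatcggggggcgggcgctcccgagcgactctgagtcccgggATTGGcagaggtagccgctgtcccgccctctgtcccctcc
Idi1 (chr13:8885356-8885655, plus strand): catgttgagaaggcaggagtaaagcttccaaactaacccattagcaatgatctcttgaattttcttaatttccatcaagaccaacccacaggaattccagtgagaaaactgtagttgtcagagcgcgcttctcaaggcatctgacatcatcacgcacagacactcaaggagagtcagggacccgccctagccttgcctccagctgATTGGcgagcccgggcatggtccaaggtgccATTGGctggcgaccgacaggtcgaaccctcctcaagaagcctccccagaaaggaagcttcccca
Msmo1 (chr8:64733529-64733828, minus strand): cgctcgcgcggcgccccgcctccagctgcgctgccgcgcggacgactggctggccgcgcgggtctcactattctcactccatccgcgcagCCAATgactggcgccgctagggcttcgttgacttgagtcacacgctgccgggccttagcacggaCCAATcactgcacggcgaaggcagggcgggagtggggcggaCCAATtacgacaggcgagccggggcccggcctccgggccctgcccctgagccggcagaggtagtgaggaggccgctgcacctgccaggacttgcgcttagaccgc
Insig1 (chr5:28071162-28071461, plus strand): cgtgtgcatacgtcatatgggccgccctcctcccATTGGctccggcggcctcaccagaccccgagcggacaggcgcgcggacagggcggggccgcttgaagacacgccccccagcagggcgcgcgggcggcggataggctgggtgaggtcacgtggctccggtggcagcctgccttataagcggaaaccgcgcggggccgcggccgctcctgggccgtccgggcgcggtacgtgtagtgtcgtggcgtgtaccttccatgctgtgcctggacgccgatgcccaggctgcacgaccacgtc
Fasn (chr11:120824498-120824797, minus strand): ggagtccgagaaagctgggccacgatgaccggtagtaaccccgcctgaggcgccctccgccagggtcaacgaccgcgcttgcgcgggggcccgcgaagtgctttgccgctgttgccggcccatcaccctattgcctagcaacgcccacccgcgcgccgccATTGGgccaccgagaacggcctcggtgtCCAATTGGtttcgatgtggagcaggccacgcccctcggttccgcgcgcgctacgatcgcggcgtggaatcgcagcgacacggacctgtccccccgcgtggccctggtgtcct

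The sterol element was found in the window of 1 of 30 members, Hmgcs1 (3.33%), in 1.44% of all 27025 genes with a window, and in 1.37% of the 10441 of them that were tested. The NF-Y box, the site of a general factor that is known to act with the sterol regulatory proteins, was found for 25 of 30 members (83.3%), against 41.1% of all genes and 43.0% of tested genes. The E-box CACGTG was found for 6 of 30 members (20%), against 8.09% of all genes and 11.5% of tested genes. The receptor element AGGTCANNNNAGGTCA, 2 direct repeats as thyroid hormone receptors are known to bind, was found for 0 of 30 members. It was found for 0.0148% of all genes and for 0 of the 10441 tested genes, so these exact letters cannot set the members apart. Elements with other letters were not searched, and no conclusion on receptor binding is drawn. All motifs were searched on both strands with exact letters, and a match describes these letters only. In the members' windows, 0 matches of the sterol element, NF-Y box or E-box shared bases with a match of another of these motifs. The run CCAATTGG in the Fasn window holds NF-Y boxes on both strands that share bases with each other.

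Interleukin-4 was followed by higher expression of nearly the whole pathway in both genotypes. In M2 against M0, 33 members were higher and 1 was lower in TRα1PV (57.7% of all genes were called, 28.3% higher and 29.4% lower). In WT, 33 members were higher and 0 lower (52.4% of all genes called, 25.2% higher and 27.2% lower). The median change of the 37 members was 1.79 in TRα1PV and 1.30 in WT, beside -0.02 over all genes in each genotype. In bulk RNA, a larger share of cells that express a gene and more RNA per cell cannot be told apart.

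**Figure D1:**
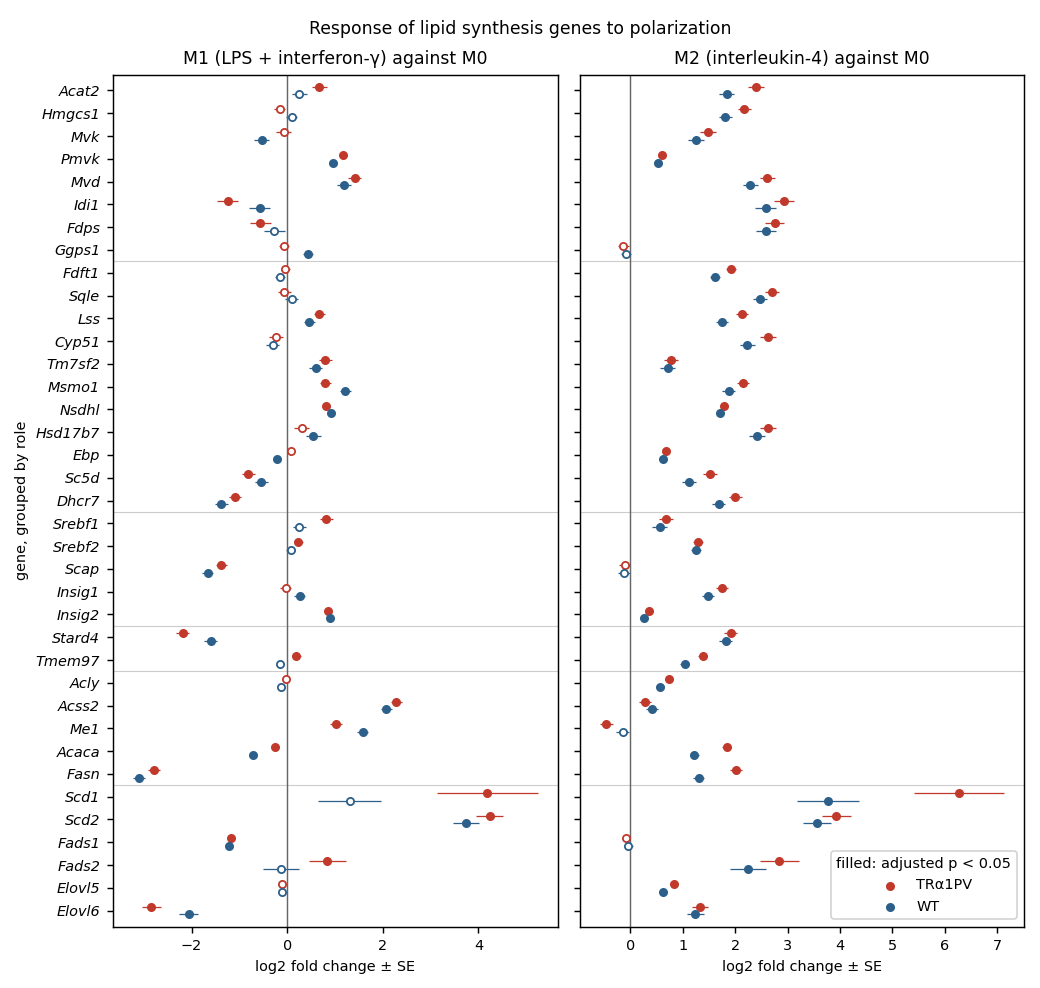
Log2 fold changes (± SE) of the 37 genes in M1 against M0 (left) and M2 against M0 (right), in TRα1PV (red, upper point) and WT (blue, lower point), with genes grouped by role and filled points for adjusted p under 0.05. In M2, 33 genes in each genotype are called to the right of 0, and in M1 the called genes lie on both sides.

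Of the 8 genes from acetyl-CoA to the prenyl diphosphates, 7 rose with M2 in both genotypes. Idi1, the isopentenyl diphosphate isomerase, averaged 29.2 ± 2.72 CPM in TRα1PV M2 and 3.79 ± 0.552 CPM in TRα1PV M0, and 18.1 ± 3.47 CPM in WT M2 and 3.01 ± 1.25 CPM in WT M0 (SD, n = 5 each). Its change was 2.94 ± 0.19 in TRα1PV (adjusted p = 6.11e-14) and 2.58 ± 0.20 in WT (adjusted p = 2.55e-12). Hmgcs1, the synthase of hydroxymethylglutaryl-CoA, averaged 274 ± 29 CPM in TRα1PV M2 and 60.5 ± 5.6 CPM in TRα1PV M0, and 179 ± 27.1 CPM in WT M2 and 51.1 ± 13.7 CPM in WT M0. In both genotypes every M2 library lay above every M0 library for these 2 genes. Mvd, the mevalonate diphosphate decarboxylase, changed by 2.62 in TRα1PV and 2.29 in WT, and Acat2, the thiolase of the first step, by 2.40 and 1.84 in the same genotypes. The mevalonate kinase Mvk changed by 1.48 in TRα1PV and 1.26 in WT, and the phosphomevalonate kinase Pmvk by 0.60 and 0.53. Fdps, the farnesyl diphosphate synthase, changed by 2.76 in TRα1PV and 2.58 in WT, from low counts, and it shares exon sequence with an annotated gene on the same strand, so its level is uncertain. Ggps1, which makes geranylgeranyl diphosphate for protein prenylation at a branch away from sterols, was the exception, at -0.13 ± 0.10 (adjusted p = 0.285) in TRα1PV and -0.08 ± 0.10 (adjusted p = 0.525) in WT.

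All 11 genes from squalene to cholesterol rose with M2 in both genotypes. Sqle, the squalene epoxidase and a rate-limiting step of this branch, averaged 99.1 ± 4.17 CPM in TRα1PV M2 and 15.2 ± 1.41 CPM in TRα1PV M0, a change of 2.71 ± 0.14, and 75.3 ± 14.5 CPM in WT M2 and 13.6 ± 3.7 CPM in WT M0, a change of 2.47 ± 0.14. The squalene synthase Fdft1 changed by 1.92 in TRα1PV and 1.61 in WT, and the lanosterol synthase Lss by 2.13 and 1.74. The demethylase Cyp51 changed by 2.63 in TRα1PV and 2.23 in WT. Among the enzymes that remove the methyl groups of lanosterol, Msmo1 changed by 2.15 in TRα1PV and 1.88 in WT, Nsdhl by 1.79 and 1.71, and Hsd17b7 by 2.62 and 2.42. The late steps showed smaller and larger changes side by side. The sterol isomerase Ebp changed by 0.69 in TRα1PV and 0.62 in WT, the desaturase Sc5d by 1.51 and 1.12, and the reductase Dhcr7, which makes cholesterol itself, by 2.00 and 1.69. The sterol reductase Tm7sf2 changed by 0.78 in TRα1PV and 0.71 in WT. It shares exon sequence with Vps51 on the same strand. On the opposite strand Fdft1 shares it with Ctsb and Cyp51 with Akap9. Hmgcs1, Idi1, Ggps1, Lss, Acss2, Elovl6, Me1, Scap and Srebf1 also share exon sequence with annotated genes on the opposite strand. Whether reads were counted by strand is not stated in the sources used here.

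Among the regulators, Srebf2, which encodes the sterol regulatory factor of the cholesterol branch, changed with M2 by 1.29 ± 0.09 in TRα1PV and 1.26 ± 0.09 in WT. Srebf1, which encodes the factor of the fatty acid branch, changed by 0.68 ± 0.14 in TRα1PV (adjusted p = 8.46e-05) and 0.56 ± 0.14 in WT (adjusted p = 0.000892). With the share of reads in no gene as a covariate, a share that was higher in M0, Srebf1 was not called in either genotype (adjusted p = 0.273 in TRα1PV and 0.229 in WT). Insig1, which retains the factors and is itself a target of them, changed by 1.74 ± 0.11 in TRα1PV and 1.49 ± 0.11 in WT, and its relative Insig2 by 0.36 ± 0.06 and 0.26 ± 0.06. Scap, at -0.11 ± 0.11 (adjusted p = 0.428) in TRα1PV and -0.12 ± 0.11 (adjusted p = 0.406) in WT, was not called. Stard4, a cytosolic cholesterol transfer protein, changed by 1.91 in TRα1PV and 1.82 in WT, and Tmem97, a sterol-responsive membrane protein of the endoplasmic reticulum, by 1.38 and 1.03.

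In the fatty acid branch, 9 of 11 genes rose with M2 in each genotype. Acaca, the acetyl-CoA carboxylase that makes malonyl-CoA, averaged 52.4 ± 1.93 CPM in TRα1PV M2 and 14.6 ± 0.633 CPM in TRα1PV M0, a change of 1.84 ± 0.08, and 47.3 ± 5.86 CPM in WT M2 and 20.3 ± 1.7 CPM in WT M0, a change of 1.22 ± 0.08. Fasn, the fatty acid synthase, averaged 97 ± 7.07 CPM in TRα1PV M2 and 24 ± 2.81 CPM in TRα1PV M0, a change of 2.02 ± 0.11, and 84 ± 15.7 CPM in WT M2 and 34 ± 4.77 CPM in WT M0, a change of 1.30 ± 0.11. The largest changes among the 37 members were those of the stearoyl-CoA desaturases. Scd2 averaged 229.9 ± 49.3 CPM in TRα1PV M2 and 15.2 ± 3.1 CPM in TRα1PV M0 (change 3.93 ± 0.28), and 176 ± 68.5 CPM in WT M2 and 14.9 ± 4.7 CPM in WT M0 (change 3.56 ± 0.27). Scd1 changed by 6.27 ± 0.86 in TRα1PV and 3.77 ± 0.59 in WT, from very few reads in M0 (below), and since the desaturase genes are close paralogs, reads between them may be split. Fads2, the first desaturase of polyunsaturated fatty acids, changed by 2.85 in TRα1PV and 2.24 in WT, whereas Fads1, the next desaturase, was at -0.09 and -0.03 and was not called. The elongases Elovl6, which extends palmitate, and Elovl5, which extends polyunsaturated chains, changed by 1.33 and 0.84 in TRα1PV and by 1.24 and 0.63 in WT. Acly, which makes cytosolic acetyl-CoA from citrate, changed by 0.74 in TRα1PV and 0.57 in WT, and Acss2, which makes it from acetate, by 0.28 and 0.42. The Acss2 call in TRα1PV was lost in 8 of 18 alternatives, among them those without TRα1PV M0 replicate 1, 2 or 5 or M2 replicate 3, 4 or 5 (adjusted p up to 0.337). The malic enzyme gene Me1, which supplies NADPH, was the member that fell, at -0.46 ± 0.12 (adjusted p = 0.00235) in TRα1PV, and in WT it was at -0.14 ± 0.13 (adjusted p = 0.356).

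Of the other genes of these pathways that were listed, 12 of 24 tested sterol genes rose and 5 fell with M2 in TRα1PV, and 12 rose and 6 fell in WT, with a median of 0.32 in TRα1PV and 0.27 in WT. Of 24 other fatty acid genes tested, 12 rose and 3 fell in TRα1PV and 12 rose and 4 fell in WT. Hsd17b12, a reductase of the elongation cycle, changed by 1.25 ± 0.09 in TRα1PV and 0.94 ± 0.09 in WT. Of the 7 targets and subunits of the liver X receptor, the oxysterol receptor that drives cholesterol export, 3 rose and 3 fell in each genotype. The cholesterol exporter genes moved in opposite directions, with Abcg1 at 1.91 ± 0.09 in TRα1PV and 1.54 ± 0.09 in WT, and Abca1 at -1.72 ± 0.11 and -1.63 ± 0.11. Among markers of adipocytes, a lipid-making cell type, the summed level was 6.71 to 15.1 CPM in TRα1PV M2 and 0.045 to 0.191 CPM in TRα1PV M0, and 6.90 to 11.2 CPM in WT M2 and 0 to 0.397 CPM in WT M0. Nearly all of it came from Adipoq (10.5 CPM in TRα1PV M2 and 8.56 CPM in WT M2), while Lep was at 0 in all groups and Plin1 was at or under 0.036 CPM, and the part of these reads in the result was not tested. Of the 8 macrophage markers, 1 rose and 6 fell with M2 in TRα1PV, and 0 rose and 5 fell in WT. Of 11 granulocyte markers tested, 2 rose and 5 fell in TRα1PV, and 1 rose and 6 fell in WT. The part of these markers was not tested either.

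Within M2, the sterol enzymes that were called between genotypes were all higher in TRα1PV. Of the 37 members, 13 were higher and 1 was lower in TRα1PV M2 than in WT M2, or 37.8% of the members. Beside them, 13.1% of all genes were called (6.14% higher and 6.96% lower). With only the M2 libraries fitted, 40.5% of the members and 28.6% of all genes were called, so the gap depended on the fit. Over the alternatives the shares ranged from 21.6 to 40.5% of the members and from 5.12 to 28.6% of all genes. In the sterol branch 9 of 19 enzymes were higher and 0 lower, with a median of 0.31 over the branch and -0.01 over all genes. The summed level of the 19 enzymes was 1106, 1317, 1244, 1148 and 1175 CPM in TRα1PV M2 replicates 1 to 5 and 723, 1055, 991, 809 and 935 CPM in WT M2 replicates 1 to 5, and the groups did not overlap. In M0 the same sum was 293 to 327 CPM in TRα1PV and 253 to 362 CPM in WT. In M1 it was 351 to 378 CPM in TRα1PV and 350.1 to 373 CPM in WT, and in both of these states the groups overlapped.

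**Figure D2:**
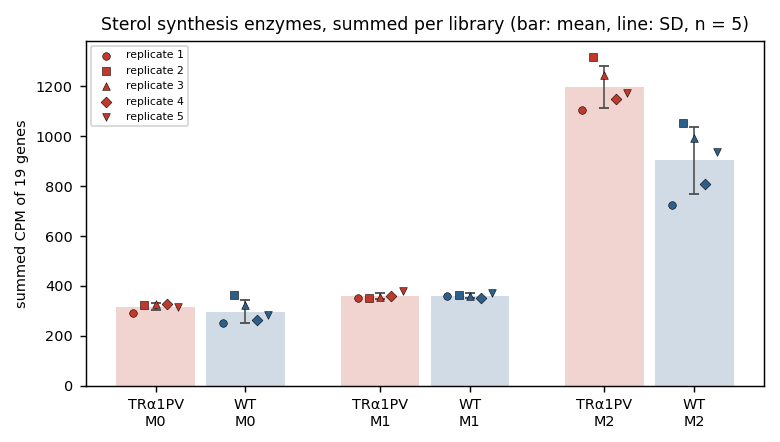
Summed CPM of the 19 sterol branch enzymes in each library (points, with 1 marker shape per replicate number), with the group mean (bar) and SD (line, n = 5), for TRα1PV (red) left of WT (blue) in M0, M1 and M2. The TRα1PV M2 libraries lie at 1106 to 1317 CPM, all above the WT M2 libraries at 723 to 1055 CPM.

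Early in the branch, Hmgcs1 had 239, 312, 295, 264 and 259 CPM in the TRα1PV M2 libraries, against 139, 211, 196, 171 and 179 CPM in the WT M2 libraries (replicates 1 to 5 in each). All TRα1PV values were above all WT values, and the change was 0.61 ± 0.12 (adjusted p = 0.000736). Idi1 had 27.1, 33.5, 30.1, 28.6 and 26.8 CPM in the TRα1PV M2 libraries, against 13, 21.9, 20.6, 17.8 and 17.2 CPM in the WT M2 libraries. Its groups did not overlap either, at 0.69 ± 0.18 (adjusted p = 0.00929). No other gene of the 8 early steps was called: Acat2 was at 0.30 ± 0.14, Mvd at 0.30 ± 0.13, Fdps at 0.33 ± 0.17, Ggps1 at 0.17 ± 0.10, Pmvk at 0.12 ± 0.08 and Mvk at 0.10 ± 0.14.

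After squalene, 7 of 11 genes were higher in TRα1PV M2. Msmo1 had 147, 189, 178, 166 and 172 CPM in the TRα1PV M2 libraries, against 96.8, 138, 138, 111 and 119.5 CPM in the WT M2 libraries. Msmo1 changed by 0.50 ± 0.11 (adjusted p = 0.00303). Sqle had 94.9, 105, 101, 95.8 and 98.5 CPM in the TRα1PV M2 libraries, against 55.4, 89.3, 87.4, 65.7 and 78.6 CPM in the WT M2 libraries. Sqle changed by 0.40 ± 0.12 (adjusted p = 0.0345). In both genes the lowest TRα1PV library exceeded the highest WT library, for Sqle by a narrow margin. Sc5d was at 0.53 ± 0.13 (adjusted p = 0.00686), Fdft1 at 0.36 ± 0.09 (adjusted p = 0.00907) and Cyp51 at 0.47 ± 0.14 (adjusted p = 0.0201). Hsd17b7 was at 0.45 ± 0.14 (adjusted p = 0.0287), and Nsdhl, with the smallest of these called changes, at 0.23 ± 0.08 (adjusted p = 0.042). Lss (0.31 ± 0.11, adjusted p = 0.0642), Ebp (-0.14), Tm7sf2 (0.07) and Dhcr7 (0.06) were not called.

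Of the regulators, Insig1 and Insig2 were called higher in TRα1PV M2, and Srebf2, Srebf1 and Scap were not called. Insig1 had 165, 213, 169.6, 183 and 181 CPM in the TRα1PV M2 libraries, against 93.6, 159, 130.3, 121 and 128 CPM in the WT M2 libraries. Every TRα1PV library lay above every WT library, and the change was 0.53 ± 0.11 (adjusted p = 0.00162). Insig2 was at 0.17 ± 0.06 (adjusted p = 0.0449), and with a replicate block, a term for the replicate number, it was at 0.17 (adjusted p = 0.0506) and not called. Srebf2 had 162, 158, 149.6, 155 and 164 CPM in the TRα1PV M2 libraries, against 153, 179, 177, 136 and 180.3 CPM in the WT M2 libraries. The groups overlapped widely, and the difference was -0.07 ± 0.09 (adjusted p = 0.654). Srebf1 had 44.4, 38.9, 37.7, 37.7 and 44.7 CPM in the TRα1PV M2 libraries, against 45.5, 48.4, 51.7, 37.6 and 51.2 CPM in the WT M2 libraries, also with overlap, at -0.20 ± 0.13 (adjusted p = 0.312), and Scap was at -0.25 ± 0.11 (adjusted p = 0.135). Stard4 had 82.6, 93.5, 82.9, 83.7 and 85.9 CPM in the TRα1PV M2 libraries, against 49.4, 69, 63.2, 53.2 and 60.3 CPM in the WT M2 libraries, with no overlap and a change of 0.54 ± 0.12 (adjusted p = 0.00267), while Tmem97 was at 0.01 ± 0.09.

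**Figure D3:**
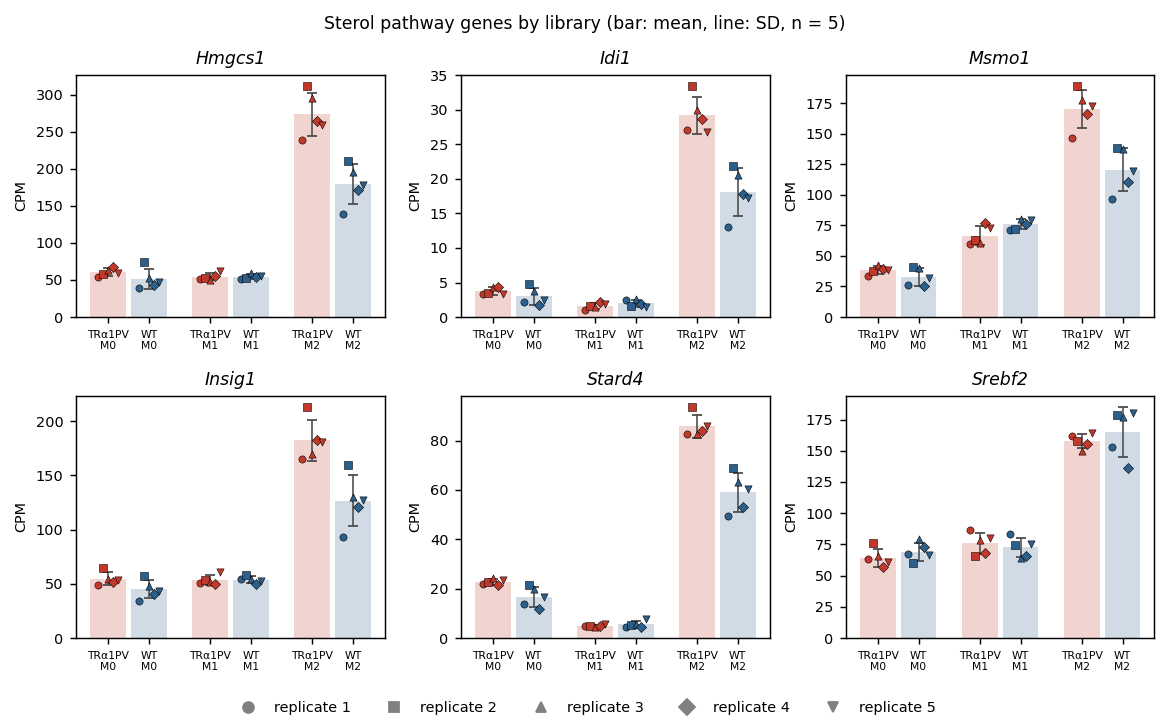
CPM of 6 sterol pathway genes in each library (points, 1 marker shape per replicate number), with group mean (bar) and SD (line, n = 5), TRα1PV (red) left of WT (blue) within each state. Hmgcs1, Idi1, Msmo1, Insig1 and Stard4 separate the genotypes in M2, and Srebf2 does not.

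In the fatty acid branch 1 of 11 genes was higher and 1 lower in TRα1PV M2. Elovl6 had 21.3, 20.3, 22.2, 17.4 and 18.3 CPM in the TRα1PV M2 libraries, against 8.81, 14.1, 13.9, 11.4 and 14.3 CPM in the WT M2 libraries, with no overlap and a change of 0.68 ± 0.16 (adjusted p = 0.00449). Acss2 had 12.2, 11.2, 13.4, 12.9 and 12.4 CPM in the TRα1PV M2 libraries, against 13.6, 17.4, 16.6, 13.7 and 17.3 CPM in the WT M2 libraries, again with no overlap, and was lower in TRα1PV at -0.34 ± 0.11 (adjusted p = 0.0478). Fasn had 93.2, 101, 93.1, 90.3 and 107 CPM in the TRα1PV M2 libraries, against 72.5, 95.2, 90.7, 62.6 and 98.9 CPM in the WT M2 libraries, with overlap and at 0.21 ± 0.11 (adjusted p = 0.182), and Acaca was at 0.15 ± 0.08 (adjusted p = 0.195). Scd2 had 233, 279.5, 235, 148 and 254 CPM in the TRα1PV M2 libraries, against 125, 253, 204, 85.5 and 212 CPM in the WT M2 libraries. Replicate 4 was the lowest library in both genotypes, each TRα1PV library was above the WT library of the same number, and Scd2 was at 0.39 ± 0.24 (adjusted p = 0.285), or 0.44 (adjusted p = 0.0102) with the replicate block. Scd1 had 2.62, 4.18, 2.16, 0.398 and 2.94 CPM in the TRα1PV M2 libraries, against 3.59, 11.3, 4.92, 0.39 and 5.96 CPM in the WT M2 libraries. Scd1 was at -1.10 ± 0.48 (adjusted p = 0.124), or -0.97 (adjusted p = 0.0268) with the block, and replicate 4 was again the lowest in both genotypes. Acly (0.07), Elovl5 (0.05), Fads1 (-0.02), Me1 (-0.12) and Fads2 (-0.36) were not called.

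Of the 14 calls in M2, 8 held in all 17 alternatives (Hmgcs1, Idi1, Fdft1, Msmo1, Sc5d, Insig1, Stard4 and Elovl6), and these 8 were the higher members called without TRα1PV M2 replicate 2 or without WT M2 replicate 1. Cyp51, Sqle, Hsd17b7, Nsdhl and Insig2 each lost their call without either of those 2 libraries (adjusted p up to 0.0785, 0.122, 0.0982, 0.139 and 0.151 over the 17 alternatives), and without other libraries all but Cyp51 did so as well. The Acss2 call was lost without any 1 of the TRα1PV M2 libraries and without WT M2 replicate 2, 3 or 5 (adjusted p up to 0.129). Calls were gained by Acat2 (0.43, adjusted p = 0.0383) without WT M2 replicate 2, by Lss without that library (0.39, adjusted p = 0.0298) or WT M2 replicate 5 (0.38, adjusted p = 0.0431), and by Scd1 (-1.41, adjusted p = 0.0195), then lower in TRα1PV, without WT M2 replicate 4. Fibroblast and stroma markers moved with genotype in the same libraries. Of 10 tested, 8 were lower in TRα1PV M2, with a summed level of 1.31 to 2.97 CPM in TRα1PV M2 and 4.43 to 16.7 CPM in WT M2, and Lum was at 0 in both. Of 11 granulocyte markers tested, 6 were higher and 2 lower in TRα1PV M2, and their summed level was 270.5 to 386 CPM in TRα1PV M2 and 342 to 422 CPM in WT M2. All 3 tested endothelium markers were called, 2 higher and 1 lower, with a sum of 27.2 to 38.8 CPM in TRα1PV M2 and 19.1 to 24.7 CPM in WT M2. Of the 8 macrophage markers, 0 were higher and 2 lower. The mitochondrial share of gene reads was 2.70 to 4.06% in TRα1PV M2 and 1.80 to 3.83% in WT M2. The part of these markers and of this share in the result was not tested.

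Of other sterol pathway genes, 4 of 24 tested were higher and 1 was lower in TRα1PV M2. Erlin2, part of the complex that degrades sterol-regulated proteins in the endoplasmic reticulum, was at 0.25 ± 0.05 (adjusted p = 0.000776), Soat1, which esterifies cholesterol, at 0.20 ± 0.06 (adjusted p = 0.0268), and Mbtps1, the first protease that cleaves the regulatory factors, at -0.23 ± 0.06 (adjusted p = 0.0157). Of other fatty acid genes, 2 of 24 were higher (Hsd17b12, 0.33 ± 0.09, and Hacd4, 0.44 ± 0.12) and 0 lower. Of the 7 liver X receptor targets and subunits, 0 were called.

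In unstimulated cells Acaca, Fasn and Scd1 of the fatty acid branch were called lower in TRα1PV, and Elovl6 was called higher. Scd1 had 7 reads in the TRα1PV M0 libraries together and was not tested when only the M0 libraries were fitted (below). It is among the 5 lower members counted next. Of the 37 members, 2 were higher and 5 lower in TRα1PV M0 than in WT M0, or 18.9% of the members, beside 26.0% of all genes called (12.0% higher and 14.0% lower). Without WT M0 replicate 2, 45.9% of the members and 38.8% of all genes were called, and without both M0 libraries numbered 2, 45.9% and 40.6%. The members' share was also above that of all genes without WT M0 replicate 4 (21.6% and 18.6%) and with no filter on low counts (16.2% and 11.1%), so the order of these shares is not read as a result.

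Acaca had 14.7, 15.4, 15, 14.3 and 13.8 CPM in the TRα1PV M0 libraries, against 20.1, 17.7, 20.6, 22.5 and 20.4 CPM in the WT M0 libraries. All TRα1PV values were below all WT values, and the change was -0.47 ± 0.08 (adjusted p = 6.77e-05). Fasn had 23.7, 27.4, 21.9, 20.6 and 26.1 CPM in the TRα1PV M0 libraries, against 34.4, 27.7, 36.1, 40.4 and 31.5 CPM in the WT M0 libraries. Fasn changed by -0.51 ± 0.11 (adjusted p = 0.000827), and here the highest TRα1PV and the lowest WT library nearly met. Both calls held in all 18 alternatives. Elovl6 went the other way, with 8.85, 7.68, 9.48, 6.69 and 6.85 CPM in the TRα1PV M0 libraries, against 4.16, 6.64, 4.96, 4.51 and 6.04 CPM in the WT M0 libraries, no overlap and a change of 0.59 ± 0.17 (adjusted p = 0.00848). Its call was lost with the share of reads in no gene as a covariate (adjusted p = 0.0626). Scd1 was almost absent, with 0.045, 0, 0.0148, 0.0478 and 0.0277 CPM in the TRα1PV M0 libraries, against 0.425, 0.434, 0.245, 0.354 and 0.46 CPM in the WT M0 libraries, which is 7 reads in all 5 TRα1PV libraries together and 73 in the WT libraries. Its change was -3.61 ± 1.08 (adjusted p = 0.0142). The call was lost with limma-voom and with the share of reads in no gene as a covariate (adjusted p 0.000115 to 0.138 over 17 alternatives). With only the M0 libraries fitted, Scd1 did not pass the filter on low counts and was not tested. In the fit of all 30 libraries it passed with the M1 and M2 libraries, which held more of its reads.

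Of the other fatty acid genes, Fads2 was at -0.96 ± 0.38 (adjusted p = 0.0576) and became -0.89 (adjusted p = 0.00399) with the replicate block. It was also called without WT M0 replicate 1 (-1.09, adjusted p = 0.0477), TRα1PV M0 replicate 1 (-1.11, adjusted p = 0.046) or WT M0 replicate 4 (-1.15, adjusted p = 0.0316). Me1 (0.19), Fads1 (0.03), Scd2 (0.02), Acly (-0.10), Elovl5 (-0.16) and Acss2 (-0.20) were not called, although Elovl5 was without WT M0 replicate 4 (-0.22, adjusted p = 0.0292) and Acss2 without TRα1PV M0 replicate 4 (-0.31, adjusted p = 0.0407). In the sterol branch only Ebp passed, at -0.21 ± 0.07 (adjusted p = 0.0248), with 31.3, 34.4, 29.6, 28.2 and 31.6 CPM in the TRα1PV M0 libraries, against 37.7, 34.8, 36.3, 37.7 and 33.1 CPM in the WT M0 libraries, and it lost its call without TRα1PV M0 replicate 3 or 4 or WT M0 replicate 1 or 4 (adjusted p up to 0.209 over all 18 alternatives).

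Tmem97 had 11, 12.6, 11.4, 9.85 and 12.8 CPM in the TRα1PV M0 libraries, against 14.5, 12.9, 15.3, 15.2 and 14.5 CPM in the WT M0 libraries, with no overlap, at -0.34 ± 0.09 (adjusted p = 0.00522), a call lost with that covariate (adjusted p = 0.0516). Stard4 had 21.7, 22.5, 24.5, 21.3 and 23.6 CPM in the TRα1PV M0 libraries, against 13.7, 21.5, 19.8, 11.9 and 16.8 CPM in the WT M0 libraries. Stard4 was at 0.44 ± 0.12 (adjusted p = 0.00849), lost when only the M0 libraries were fitted (adjusted p = 0.0533), and WT M0 replicate 2 lay within the range of the TRα1PV libraries. No regulator was called. Insig1 had 48.7, 64.5, 54.5, 51.8 and 53.3 CPM in the TRα1PV M0 libraries, against 34.7, 57.2, 48.4, 41 and 43.8 CPM in the WT M0 libraries. Insig1 was at 0.28 ± 0.11 (adjusted p = 0.0691), or 0.28 (adjusted p = 0.00787) with the replicate block. Each TRα1PV library was above the WT library of the same number, while the groups overlapped. Srebf1 had 27, 31, 23.2, 21.6 and 24.6 CPM in the TRα1PV M0 libraries, against 36.5, 20.6, 35.6, 39.2 and 27.1 CPM in the WT M0 libraries. Srebf1 was at -0.32 ± 0.14 (adjusted p = 0.0776), and WT replicate 2 was the lowest library of both groups. Srebf2 had 63.6, 75.8, 65.7, 56.6 and 60.8 CPM in the TRα1PV M0 libraries, against 67.1, 59.8, 79.2, 72.8 and 66.4 CPM in the WT M0 libraries. Srebf2 was at -0.10 ± 0.09 (adjusted p = 0.445). The groups overlapped here too. Scap was at -0.26 and Insig2 at 0.07. Without TRα1PV M0 replicate 2, Srebf1 was at -0.40 (adjusted p = 0.034) and Scap at -0.33 (adjusted p = 0.0351).

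Several calls in the sterol branch in M0 depended on WT M0 replicate 2. Hmgcs1 had 53.4, 57.6, 63.3, 68.1 and 60.1 CPM in the TRα1PV M0 libraries, against 38.8, 73.9, 52.5, 43 and 47.4 CPM in the WT M0 libraries, and WT replicate 2 was the highest of the 10. With all libraries Hmgcs1 was at 0.24 ± 0.12 (adjusted p = 0.137), and without WT M0 replicate 2 at 0.41 (adjusted p = 0.00191). Sqle had 13, 15.8, 16.3, 16.2 and 14.5 CPM in the TRα1PV M0 libraries, against 10.1, 17.7, 17.5, 10.9 and 11.8 CPM in the WT M0 libraries. Sqle was at 0.16 ± 0.13 (adjusted p = 0.397), where WT replicates 2 and 3 were the highest and the other 3 WT libraries the lowest. Idi1, with 3.33, 3.54, 4.41, 4.35 and 3.3 CPM in the TRα1PV M0 libraries, against 2.21, 4.82, 3.76, 1.77 and 2.48 CPM in the WT M0 libraries, was at 0.34 ± 0.20 (adjusted p = 0.213) with all libraries and at 0.58 (adjusted p = 0.0164) without that library. Msmo1, with 33.5, 38, 42.3, 39.5 and 38.5 CPM in the TRα1PV M0 libraries, against 26.3, 40.7, 39.9, 25.2 and 32 CPM in the WT M0 libraries, was at 0.23 ± 0.11 (adjusted p = 0.145) with all libraries and at 0.32 (adjusted p = 0.0287) without it. WT replicate 2 exceeded every TRα1PV library for Hmgcs1 and Idi1, and not for Msmo1. Without WT M0 replicate 2, 9 members were higher (Hmgcs1, Idi1, Ggps1, Cyp51, Msmo1, Sc5d, Insig1, Stard4 and Elovl6) and 8 lower (Acaca, Fasn, Scd1, Ebp, Tmem97, Srebf1, Scap and Dhcr7). Without both M0 libraries numbered 2, 8 were higher and 9 lower. Each of these fits called 45.9% of the members, beside 38.8 and 40.6% of all genes. With the share of reads in no gene as a covariate, only Stard4 was higher and Acaca, Fasn and Elovl5 were lower. That was 10.8% of the members, beside 19.9% of all genes.

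Markers of other cells differed between the genotypes in M0 as well. All 10 tested fibroblast and stroma markers were lower in TRα1PV M0, at a summed 1.85 to 3.64 CPM in TRα1PV M0 and 8.13 to 26.8 CPM in WT M0, with Lum at 0 in WT. Of 11 granulocyte markers, 9 were higher and 2 lower, at a summed 282.5 to 479 CPM in TRα1PV M0 and 357.5 to 497 CPM in WT M0. Of 3 endothelium markers tested, 2 were higher, with a sum of 10.6 to 22.0 CPM in TRα1PV M0 and 6.69 to 10.5 CPM in WT M0. Of the 8 macrophage markers, 1 was higher and 2 were lower, and the B cell marker Cd79b, the 1 tested, was higher, at 6.55 ± 1.22 CPM in TRα1PV M0 and 4.61 ± 1.08 CPM in WT M0 (SD, n = 5 each). Adipocyte markers summed to at most 0.191 CPM in TRα1PV M0 and 0.397 CPM in WT M0. The part of these markers in the result was not tested.

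Among other sterol pathway genes in M0, 4 of 24 tested were higher and 3 lower in TRα1PV, and the electron donors of the sterol oxidases were lower, with Por at -0.79 ± 0.08 (adjusted p = 2.1e-08) and Cyb5r3 at -0.42 ± 0.06 (adjusted p = 8.91e-06). Of other fatty acid genes, 2 of 24 were higher and 4 lower, with Hacd4, an elongation dehydratase, at 0.64 ± 0.12 (adjusted p = 0.000259) and Tecr, an elongation reductase, at -0.32 ± 0.09 (adjusted p = 0.00667). Of the 7 liver X receptor genes, 1 was higher (Abca1, 0.35 ± 0.11) and 3 were lower, with the receptor gene Nr1h3 at -1.29 ± 0.19 (adjusted p = 7.1e-06) and the exporter gene Abcg1 at -0.58 ± 0.09 (adjusted p = 1.88e-05). Klf9, a known thyroid hormone target, was at -3.81 ± 0.15 (adjusted p = 1.09e-17).

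**Figure D4:**
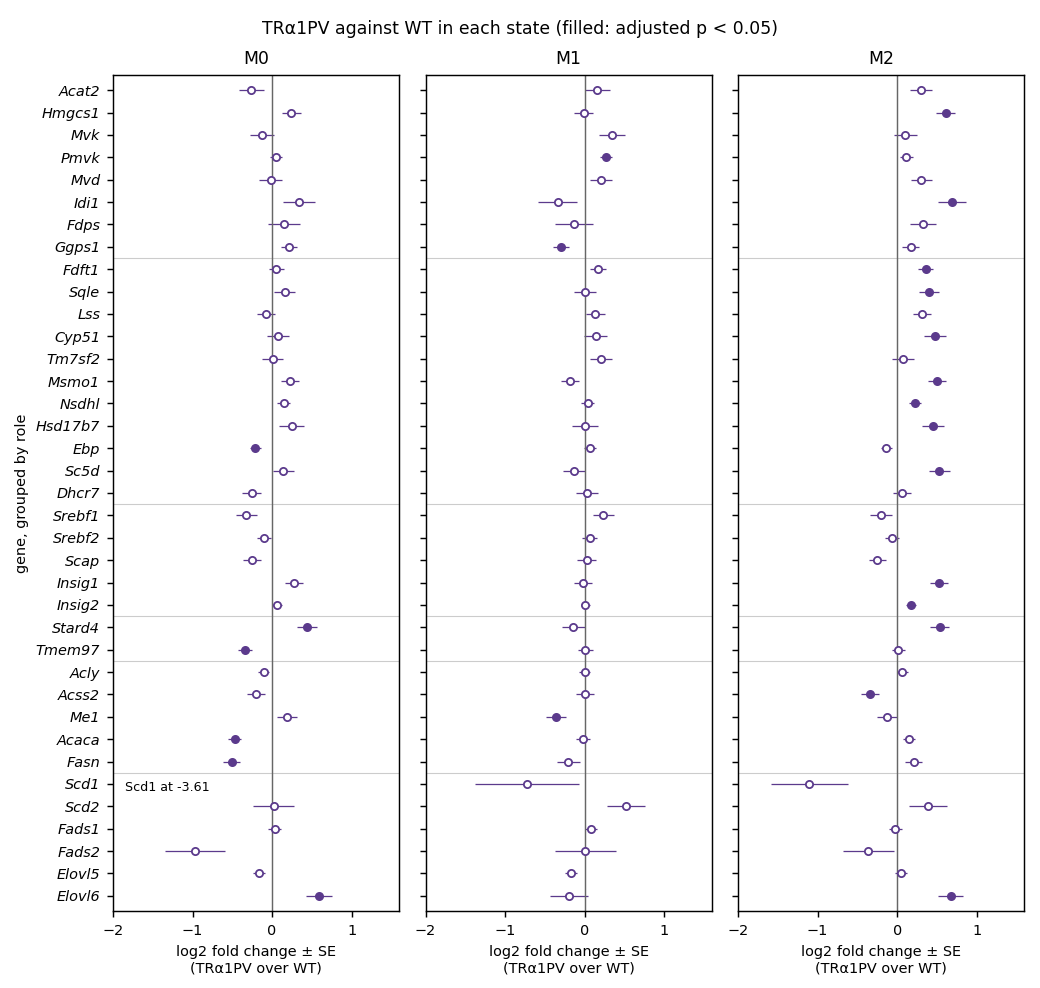
Log2 fold changes (± SE) of the 37 genes in TRα1PV against WT, in M0, M1 and M2, with genes grouped by role and filled points for adjusted p under 0.05. Scd1 in M0 lies outside the axis at -3.61, and 7 genes are called in M0, 3 in M1 and 14 in M2.

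With lipopolysaccharide and interferon-γ, members were called in both directions, and their share is read against that of all genes beside it. In M1 against M0, 16 members were higher and 10 lower in TRα1PV, or 70.3% of the members, beside 80.7% of all genes called (40.0% higher and 40.7% lower). In WT, 13 were higher and 11 lower, or 64.9%, beside 79.6% (39.4% higher and 40.2% lower). The median change of the members was -0.03 in TRα1PV and 0.07 in WT, and both comparisons use the same M0 libraries as those with M2. Of the 8 macrophage markers, 3 rose and 3 fell with M1 in TRα1PV and 3 rose and 4 fell in WT. Of 11 granulocyte markers tested, 1 rose and 10 fell in TRα1PV and 0 rose and 10 fell in WT. The part of these markers in the result was not tested.

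In the fatty acid branch the synthase fell while a desaturase and the acetate and malate enzymes rose. Fasn averaged 3.45 ± 0.266 CPM in TRα1PV M1 and 24 ± 2.81 CPM in TRα1PV M0 (change -2.79 ± 0.13), and 3.99 ± 0.559 CPM in WT M1 and 34 ± 4.77 CPM in WT M0 (change -3.09 ± 0.13). Scd2 averaged 284 ± 68.7 CPM in TRα1PV M1 and 15.2 ± 3.1 CPM in TRα1PV M0 (change 4.23 ± 0.28), and 198 ± 41.4 CPM in WT M1 and 14.9 ± 4.7 CPM in WT M0 (change 3.73 ± 0.28). Elovl6 averaged 1.1 ± 0.212 CPM in TRα1PV M1 and 7.91 ± 1.23 CPM in TRα1PV M0 (change -2.84 ± 0.20), and changed by -2.06 ± 0.20 in WT. In all 3 genes the M1 and M0 libraries did not overlap in either genotype. Acss2 averaged 49.6 ± 6.98 CPM in TRα1PV M1 and 10.2 ± 2.14 CPM in TRα1PV M0 (change 2.28 ± 0.12), and changed by 2.07 ± 0.12 in WT. Me1 rose by 1.03 in TRα1PV and 1.57 in WT, Fads1 was at -1.17 and -1.21, and Acaca at -0.26 and -0.71, all called. Scd1 was at 4.19 ± 1.05 (adjusted p = 0.000601) in TRα1PV and 1.31 ± 0.66 (adjusted p = 0.07) in WT, where the block gave 1.14 (adjusted p = 0.0161) and leaving out WT M1 replicate 4 gave 1.59 (adjusted p = 0.0273). Fads2 was at 0.84 ± 0.39 (adjusted p = 0.0489) in TRα1PV, a call lost in 11 of 18 alternatives (adjusted p up to 0.296), among them those without TRα1PV M1 replicate 1, 2, 3 or 5 or TRα1PV M0 replicate 2, 3, 4 or 5, and at -0.13 in WT. Acly (-0.03 and -0.13) and Elovl5 (-0.11 and -0.10) were not called in TRα1PV or WT. In WT, Acly was called without WT M0 replicate 2 (-0.18, adjusted p = 0.0109) and Elovl5 without WT M0 replicate 4 (-0.16, adjusted p = 0.0409).

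In the sterol branch, 7 of 19 enzymes rose and 4 fell with M1 in TRα1PV, and 8 rose and 5 fell in WT. Mvd (1.41 and 1.19), Pmvk (1.17 and 0.96), Nsdhl (0.82 and 0.92), Msmo1 (0.80 and 1.21), Tm7sf2 (0.80 and 0.59) and Lss (0.67 and 0.46) rose in TRα1PV and WT. Dhcr7 (-1.09 and -1.38), Sc5d (-0.82 and -0.54) and Idi1 (-1.25 and -0.57) fell in both, although the Idi1 call in WT was lost in 8 of 18 alternatives (adjusted p up to 0.733), among them those without WT M0 replicate 2 or 3 or WT M1 replicate 2 or 5. Acat2 rose in TRα1PV (0.67) and Fdps fell there (-0.56, adjusted p = 0.0202, lost without TRα1PV M1 replicate 1 or TRα1PV M0 replicate 3, up to 0.781 over 18 alternatives). In WT, Ggps1 (0.44) and Hsd17b7 (0.54) rose, and Mvk (-0.53) and Ebp (-0.21) fell. Hmgcs1 was at -0.16 ± 0.12 (adjusted p = 0.225) in TRα1PV and 0.09 ± 0.12 (adjusted p = 0.48) in WT, and Sqle and Fdft1 were likewise not called in either. Cyp51 was at -0.24 in TRα1PV and -0.31 in WT, and with the block at -0.25 (adjusted p = 0.0391) and -0.27 (adjusted p = 0.0261), and Hsd17b7 in TRα1PV was at 0.30, with the block at 0.31 (adjusted p = 0.0389). Single libraries also decided some calls. Hmgcs1 in WT was called without WT M0 replicate 2 (0.26, adjusted p = 0.0179), Cyp51 in WT without WT M0 replicate 1, 4 or 5 (-0.41, adjusted p = 0.01, without replicate 4), and Hsd17b7 in TRα1PV without TRα1PV M1 replicate 1 (0.41, adjusted p = 0.0184) or TRα1PV M0 replicate 3 (0.41, adjusted p = 0.0213).

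Stard4 averaged 5.00 ± 0.419 CPM in TRα1PV M1 and 22.7 ± 1.31 CPM in TRα1PV M0 (change -2.18 ± 0.14), and changed by -1.60 ± 0.14 in WT. Scap was at -1.38 ± 0.12 in TRα1PV and -1.66 ± 0.12 in WT, and Insig2 at 0.84 ± 0.06 and 0.90 ± 0.06. These 3 genes separated M1 from M0 without overlap in both genotypes. Srebf1 was at 0.81 ± 0.14 (adjusted p = 3.16e-06) in TRα1PV and 0.25 ± 0.14 (adjusted p = 0.0881) in WT. Insig1 was at 0.26 ± 0.11 (adjusted p = 0.0356) in WT, a call lost in 7 of 18 alternatives (adjusted p up to 0.138), among them those without WT M0 replicate 1, 4 or 5 or WT M1 replicate 1, 2 or 3, and at -0.03 in TRα1PV. Srebf2 (0.23, adjusted p = 0.0195) and Tmem97 (0.19, adjusted p = 0.0475) were called higher in TRα1PV and changed sign with the share of reads in no gene as a covariate, and in WT they were at 0.07 and -0.15. Srebf2 in TRα1PV also lost its call without TRα1PV M1 replicate 1 or TRα1PV M0 replicate 4 (adjusted p up to 0.851 over 18 alternatives), and Tmem97 in TRα1PV without TRα1PV M1 replicate 2, 3 or 5 or TRα1PV M0 replicate 1, 3 or 4 (up to 0.641). In WT, Tmem97 was called without WT M1 replicate 1 (-0.21, adjusted p = 0.0384) and Srebf1 without WT M0 replicate 4 (0.34, adjusted p = 0.0282). Of other sterol genes tested, 11 of 24 rose and 7 fell in TRα1PV and 13 rose and 5 fell in WT, with Npc2, a lysosomal sterol carrier, at 1.45 ± 0.07 and 1.56 ± 0.07. Of other fatty acid genes tested, 10 of 24 rose and 9 fell in TRα1PV and 11 rose and 8 fell in WT, with the acyl-CoA synthetase gene Acsl1 at 3.23 ± 0.11 and 3.87 ± 0.11, and the phosphatidate phosphatase gene Lpin1 at -4.17 ± 0.11 and -4.10 ± 0.11.

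Between genotypes in M1, 1 member was higher and 2 were lower in TRα1PV, or 8.11% of the members, beside 20.0% of all genes called (9.74% higher and 10.2% lower). Pmvk had 21.7, 20.8, 25, 19.1 and 23.2 CPM in the TRα1PV M1 libraries, against 20.4, 17.3, 17.1, 17.2 and 19.4 CPM in the WT M1 libraries. Pmvk was at 0.27 ± 0.08 (adjusted p = 0.0135), and lost its call without TRα1PV M1 replicate 3 (adjusted p up to 0.0651 over 17 alternatives). Me1 had 16.7, 14.7, 16.3, 15 and 12.8 CPM in the TRα1PV M1 libraries, against 18.4, 18.6, 19.9, 18.7 and 21.4 CPM in the WT M1 libraries, with all TRα1PV libraries below all WT libraries, at -0.36 ± 0.12 (adjusted p = 0.0322). Its call was lost without TRα1PV M1 replicate 2 or 5 or WT M1 replicate 3 or 5 (adjusted p up to 0.083). Ggps1 had 24.9, 27.9, 27.2, 28 and 32.2 CPM in the TRα1PV M1 libraries, against 29.6, 34.4, 38, 34.9 and 34.8 CPM in the WT M1 libraries. Ggps1 was at -0.29 ± 0.10 (adjusted p = 0.0438), and lost its call in 10 of 17 alternatives (adjusted p up to 0.125), among them those without any 1 of TRα1PV M1 replicates 1 to 4 or WT M1 replicates 2 to 5. Calls were gained by Mvk (0.47, adjusted p = 0.0263) without TRα1PV M1 replicate 5 and by Elovl5 (-0.22, adjusted p = 0.0414) without TRα1PV M1 replicate 2.

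All members but Me1 overlapped between the genotypes in M1. The share of all genes that did so was not computed, so this count is not read as a result. Hmgcs1 had 51.4, 52, 50.5, 54.7 and 62.2 CPM in the TRα1PV M1 libraries, against 51.8, 52.8, 59.4, 53.3 and 55.7 CPM in the WT M1 libraries. Hmgcs1 was at -0.01 ± 0.12. Insig1 had 50.9, 53.5, 51.6, 49.5 and 61 CPM in the TRα1PV M1 libraries, against 54.9, 57.9, 54.6, 49.6 and 53.1 CPM in the WT M1 libraries. The highest library of all was in TRα1PV. Insig1 was at -0.02 ± 0.11. Sqle had 14.8, 14.4, 13.6, 13.3 and 16.6 CPM in the TRα1PV M1 libraries, against 13.6, 16.3, 13.2, 13.4 and 15.8 CPM in the WT M1 libraries. Sqle was at 0.01 ± 0.14. These 3 genes thus showed no separation of the genotypes in M1. Srebf1 had 56.7, 40.5, 49, 37.7 and 39.5 CPM in the TRα1PV M1 libraries, against 41.5, 38.9, 34.9, 32.9 and 41.5 CPM in the WT M1 libraries. Srebf1 was at 0.24 ± 0.14 (adjusted p = 0.229). Srebf2 had 86.7, 66.1, 78.4, 68.2 and 79.9 CPM in the TRα1PV M1 libraries, against 83.5, 74.2, 64.1, 65.9 and 75.2 CPM in the WT M1 libraries. Srebf2 was at 0.06 ± 0.09 (adjusted p = 0.667). Both factors overlapped between genotypes. Fasn had 3.73, 3.26, 3.65, 3.1 and 3.52 CPM in the TRα1PV M1 libraries, against 4.00, 4.73, 3.25, 3.71 and 4.26 CPM in the WT M1 libraries. Fasn was at -0.20 ± 0.14, with WT higher in 4 of 5 replicate numbers. Scd1 had 0.753, 0.629, 0.858, 0.113 and 0.494 CPM in the TRα1PV M1 libraries, against 0.888, 1.64, 1.17, 0.141 and 0.908 CPM in the WT M1 libraries. Scd1 was at -0.73 ± 0.65 (adjusted p = 0.465), with replicate 4 the lowest of both groups. Scd2 had 281, 301, 308, 172 and 357 CPM in the TRα1PV M1 libraries, against 231, 214, 182, 133 and 230.0 CPM in the WT M1 libraries. Scd2 was at 0.52 ± 0.24 (adjusted p = 0.132). Each TRα1PV library exceeded the WT library of its number, and with the replicate block Scd2 was at 0.50 (adjusted p = 0.00264). Acaca had 12.6, 12.1, 13.6, 10.3 and 12.3 CPM in the TRα1PV M1 libraries, against 12.1, 12.3, 12, 11 and 14.5 CPM in the WT M1 libraries. Elovl6 had 0.789, 1.22, 1.07, 1.36 and 1.08 CPM in the TRα1PV M1 libraries, against 0.615, 1.45, 1.95, 1.02 and 1.26 CPM in the WT M1 libraries. Neither gene was called. Of fibroblast and stroma markers, 5 of 10 tested were lower in TRα1PV M1, at a summed 5.22 to 8.09 CPM in TRα1PV M1 and 8.37 to 10.1 CPM in WT M1. Of 3 endothelium markers 1 was higher, with a sum of 80.5 to 100.2 CPM in TRα1PV M1 and 61.1 to 83.3 CPM in WT M1, of 11 granulocyte markers 1 was higher and 2 lower, of the 8 macrophage markers 0 were higher and 2 lower, and Cd79b was higher. The part of these markers in the result was not tested.

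Among other genes in M1, 2 of 24 sterol genes tested were higher and 1 lower in TRα1PV, with the protease gene Mbtps2 at -0.57 ± 0.16 (adjusted p = 0.00951). Por, lower in TRα1PV in M0, had 534 to 669 CPM in TRα1PV M1 and 440 to 554 CPM in WT M1. Cyb5r3, also lower in TRα1PV in M0, had 142 to 180 CPM in TRα1PV M1 and 123 to 133 CPM in WT M1. Of other fatty acid genes, 2 of 24 were higher and 6 lower, with the elongation dehydratase gene Hacd3 at -1.34 ± 0.09 (adjusted p = 2.22e-11), Acsl1 at -0.78 ± 0.10 (adjusted p = 2.39e-06) and Gpam, which starts triglyceride synthesis, at -0.58 ± 0.09 (adjusted p = 2.98e-05). Of the 7 liver X receptor genes, 3 were higher and 1 lower, with Abca1 at 0.58 ± 0.11 (adjusted p = 0.000369) and Nr1h3 at -0.68 ± 0.17 (adjusted p = 0.00487).

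Whether the genotype effect itself differed between states was tested as a difference of log2 fold changes in the same fit. Between M2 and M0, the effect was higher in M2 for 2 members and lower for 0, or 5.41% of the members, beside 2.16% of all genes called (0.701% higher and 1.46% lower). They were Acaca, with a difference of 0.62 ± 0.11 (adjusted p = 0.00164), from an effect of 0.15 in M2 and -0.47 in M0, and Fasn, with 0.72 ± 0.15 (adjusted p = 0.00602), from 0.21 in M2 and -0.51 in M0. Both differences held in all 28 alternatives. Of the 19 sterol branch enzymes, 0 differed in genotype effect between M2 and M0. The difference was 0.37 ± 0.17 (adjusted p = 0.37) for Hmgcs1, 0.35 ± 0.27 (adjusted p = 0.742) for Idi1, 0.27 ± 0.16 (adjusted p = 0.576) for Msmo1 and 0.25 ± 0.16 (adjusted p = 0.615) for the regulator Insig1, so the separation of these genes in M2 was not shown to be particular to that state. For Elovl6 it was 0.08 ± 0.23 (adjusted p = 0.975) and for Stard4 0.10 ± 0.17 (adjusted p = 0.944), and in both genes TRα1PV was higher in M0 as well as in M2.

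Between M1 and M0, the effect was higher in M1 for 4 members and lower for 4, or 21.6%, beside 26.6% of all genes called (13.3% in each direction). Acaca (0.45 ± 0.12, adjusted p = 0.0058), Ggps1 (-0.51 ± 0.15, adjusted p = 0.0111) and Me1 (-0.55 ± 0.17, adjusted p = 0.019) held in all 28 alternatives. Elovl6 (-0.79 ± 0.29, adjusted p = 0.0429), Stard4 (-0.58 ± 0.19, adjusted p = 0.0244), Srebf1 (0.56 ± 0.19, adjusted p = 0.0313), Tmem97 (0.34 ± 0.12, adjusted p = 0.0407) and Ebp (0.28 ± 0.10, adjusted p = 0.0368) were lost in 14, 3, 10, 14 and 12 of 28 alternatives. The count of higher members was 1 without WT M0 replicate 1, 3 or 4, TRα1PV M0 replicate 3 or 4, WT M1 replicate 3 or 4 or TRα1PV M1 replicate 3, and 2 without TRα1PV M1 replicate 1. The count of lower members was 9 without WT M0 replicate 2, and 2 without WT M0 replicate 1 or 4 or WT M1 replicate 5. Without WT M0 replicate 2, 37.8% of the members and 37.8% of all genes were called. Over the fits that left out a single library, 8.11 to 37.8% of the members were called, beside 19.8 to 37.8% of all genes. With the replicate block 7 members were higher, and Msmo1 (-0.42, adjusted p = 0.0173) and Insig1 (-0.30, adjusted p = 0.0411) joined those lower. The 3 added to the higher ones were Scd1 (2.93, adjusted p = 0.0111), Scd2 (0.44, adjusted p = 0.0478) and Fads2 (0.92, adjusted p = 0.0332). With the block 35.1% of the members were called, beside 29.4% of all genes.

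**Figure D5:**
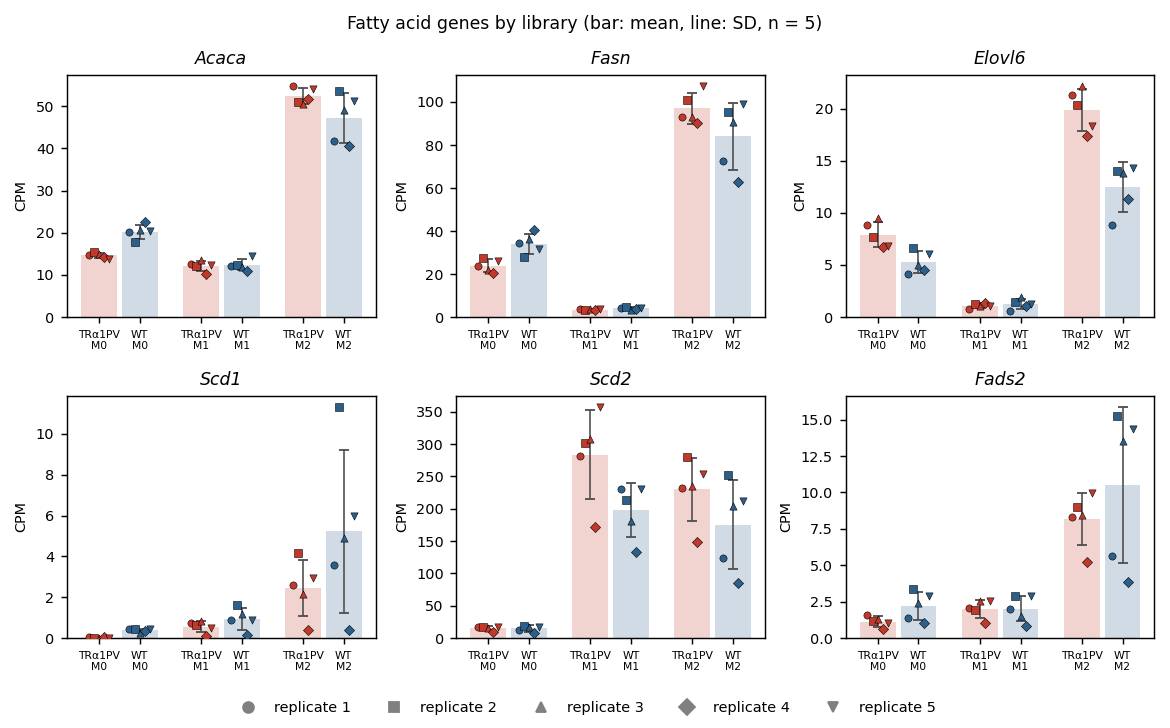
CPM of 6 fatty acid genes in each library (points, 1 marker shape per replicate number), with group mean (bar) and SD (line, n = 5), TRα1PV (red) left of WT (blue) within each state. Acaca and Fasn are lower in TRα1PV in M0 and overlap in M2, and replicate 4 (diamond) is the lowest library of Scd2 and Fads2 in all 6 groups.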

How the data were processed

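For each library the authors deposited 1 file of raw counts of reads by Ensembl gene identifier. The submitters' processing notes name, with no role for any, HTSeq 1.99.2, HISAT2 2.2.1, Trimmomatic 0.39, FastQC 0.11.9, R 4.3.2, limma, edgeR, Cufflinks and the build GRCm39. Annotation release and strand setting are not stated in the sources used here, so overlapping and near-identical genes are uncertain. The 5 rows of reads not counted for a gene, for any reason (22.0 to 28.1% of all reads), were left out of library sizes. The share of reads in no gene, used as a covariate, is a narrower measure. It takes only reads that matched no gene or several genes, over these and the reads in genes together (10.7 to 16.5%).

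Counts were analysed with edgeR 4.0.16 in R 4.3.3: filterByExpr by group (minimum count 10, minimum total 15), TMM factors, and 1 quasi-likelihood fit of 30 libraries with a mean per group (24 residual degrees of freedom). All tests were two-sided, with Benjamini-Hochberg adjustment over 15686 genes. Standard errors were taken as |log2 fold change| over the root of F. They are approximate for genes with few reads. The fit was first tested on simulated data.

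Alternatives were RLE size factors, DESeq2 1.42.0, limma-voom (limma 3.58.1), no filter, only the groups compared, a replicate block, the share of reads in no gene as a covariate, and leaving out libraries. The replicate number stands under the tag batch in the labels, which is where the pairing comes from. Deviations of same-numbered TRα1PV and WT libraries from their group means correlated over genes between -0.37 and 0.26 in M0, between -0.17 and 0.17 in M1, and between -0.02 and 0.21 in M2. The block gives both genotypes the same term for a number. Whether M0, M1 and M2 libraries of a genotype and number share an animal is not stated in the sources used here. Such libraries were not correlated or given their own term, and the main fit treats them as independent. Libraries within each of the 60 same-group pairs differed beyond counting noise.

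The 37 members and the other lists were chosen with earlier results of these data known. All members are named. Values per library are given for 7 members and for the called ones with the smallest p (4 per genotype comparison, 3 per difference of effects) or largest change (3 per state comparison). Of other listed genes, at most 4 per list and comparison, those with the smallest p, could be named, and some of these are not reported here. Scd2 in M1 and Idi1, Msmo1, Stard4, Elovl6, Acss2, Acaca and Ebp in further states were added to the per-library values after they were seen. RefSeq windows (GRCm38.p6) differ in build from the counts and carry no count coordinates.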

Additional observations from a re-analysis of the deposited data

Results flagged for a closer look

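Of 222 sets of 5 libraries (37 members in 6 groups), 6 held a library far from the other 4 by Dixon's criterion, which chance alone gives in about 1 in 20 sets. Mvd had 43.8 CPM in TRα1PV M2 replicate 4 and 47.8 to 49.4 CPM in the others. Nsdhl had 42.7 CPM in the same library and 47.6 to 49.3 CPM in the others. Ebp had 46.7 CPM in WT M2 replicate 4 and 56.5 to 58.2 CPM in the others. Scd2 had 9.73 CPM in TRα1PV M0 replicate 4 and 15.5 to 17.3 CPM in the others. In those 4 sets the library apart was the lowest and carried the number 4. Tmem97 had 15.3 CPM in TRα1PV M1 replicate 3 and 12.1 to 12.9 CPM in the others, and Acss2 had 58.5 CPM in WT M1 replicate 1 and 46.3 to 48.3 CPM in the others.

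The genotype effect differed between states for 10 results by a test of the difference itself. Between M2 and M0 these were Acaca (0.62) and Fasn (0.72), or 5.41% of the members, beside 2.16% of all genes. Between M1 and M0 they were Acaca (0.45), Srebf1 (0.56), Tmem97 (0.34), Ebp (0.28), Ggps1 (-0.51), Me1 (-0.55), Stard4 (-0.58) and Elovl6 (-0.79). Those 8 were 21.6% of the members, beside 26.6% of all genes, so their number is not read as a result about the members. All values are differences of log2 fold changes.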

How the results depend on the processing

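Of 333 member results, 151 were called, 119 of them in every alternative run, 32 were lost in at least 1, and 48 others were gained in at least 1. The shares of all genes stand beside the count of each comparison and were not pooled, so these totals are not read as a result about the members. With the covariate for reads in no gene, Srebf2 (-0.026) and Tmem97 (-0.059) reversed in M1 against M0 in TRα1PV. The cause was not tested. Higher and lower members in TRα1PV against WT in M0 numbered 1 and 3 with the covariate, 10.8% beside 19.9% of all genes. They numbered 1 and 3 with only the groups compared (10.8% beside 17%). Without both M0 libraries numbered 2 they were 8 and 9 (45.9% beside 40.6%). In M1, 1 member was lower with limma-voom, and 0 were higher and 1 lower with no filter. With the replicate block 2 were higher, and with the covariate 3. These fits called 5.41, 2.7, 10.8 and 16.2% of the members, beside 18.9, 7.97, 21.7 and 34.3% of all genes. In M2, 0 members were lower with limma-voom, no filter or the covariate, and 2 with the block or only the groups compared. In that order, 37.8, 29.7, 27, 40.5 and 40.5% of the members were called, beside 13.9, 5.12, 10.2, 15.5 and 28.6% of all genes. In M2 against M0, the covariate gave 2 lower in TRα1PV and 1 in WT. It called 89.2% of the members in each genotype, beside 57.5% of all genes in TRα1PV and 54.2% in WT. For the genotype effect in M1 minus that in M0, 2 were higher with no filter or only the groups compared. With the block 7 were higher, and 7 were lower without both M0 libraries numbered 2. Called in these fits were 16.2, 13.5, 35.1 and 35.1% of the members, beside 10.7, 20.9, 29.4 and 40.1% of all genes. Apart from the values printed beside the results, the block changed no call. Leaving out single libraries gave 2 to 9 higher and 4 to 8 lower in M0, 0 to 2 and 0 to 2 in M1, and 8 to 14 and 0 to 2 in M2. For M1 against M0 it gave 13 to 16 higher and 9 to 10 lower in TRα1PV, and 12 to 14 and 10 to 13 in WT. For M2 against M0 it gave 32 to 33 higher and 1 to 1 lower in TRα1PV, and 33 to 33 and 0 to 0 in WT. For differences of the genotype effect it gave 1 to 5 higher and 2 to 9 lower with M1. With M2 it gave 2 to 2 higher and 0 to 0 lower. Single-library fits called 16.2 to 45.9% of the members in M0, beside 18.6 to 38.8% of all genes. In M1 these shares were 2.7 to 8.11% and 13.6 to 22.2%, and in M2 21.6 to 37.8% and 8.01 to 17.1%. For M1 against M0 they were 62.2 to 70.3% and 79 to 79.5% in TRα1PV, and 59.5 to 70.3% and 77.5 to 79.9% in WT. For M2 against M0 they were 89.2 to 91.9% and 54.4 to 56% in TRα1PV, and 89.2% and 48.3 to 53.4% in WT. Over all genes, the count called in M0 was 4072, and 2458 with only the groups compared, in M2 2055 and 4008, in M1 3132 and with the covariate 5376, and for the difference between M2 and M0 339, 525 with DESeq2 and 537 with the covariate. Scd1 in TRα1PV M0, with 7 reads in 5 libraries, is the member whose depth limits its change most.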

Other observations

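For several members the same replicate number held the lowest library in most groups. Replicate 4 was the lowest library of its group in all 6 groups for Scd2 and Fads2, and in 5 of 6 for Srebf1, Tmem97, Acly and Fads1. Replicate 1 was the lowest in at least 5 of 6 groups for 3 members, Hmgcs1, Msmo1 and Sc5d, and 0 members had replicate 2, 3 or 5 as the lowest in 5 or more groups. Scd2 thus had 148 CPM in TRα1PV M2 replicate 4 and 85.5 CPM in WT M2 replicate 4, where the other libraries had 233 to 279.5 CPM in TRα1PV M2 and 125 to 253 CPM in WT M2.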
